A study of Homo sapiens with 2 samples.

Results

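The 39 genes described here are published transcriptional targets of the tumour suppressor p53, with the long noncoding RNA PURPL among them. The list was given by name and chosen with earlier results of these data known, so its differences are described and not tested. No measured value entered the rule itself, and each gene was read from the non-control probes whose RefSeq accession belongs to it. All 39 had at least 1 probe, of 22439 genes that a probe named, and together they had 55 probes. Messenger RNA had been measured in H9 cells, an established human embryonic stem cell line, on 2 single-colour Agilent expression arrays. Substate 1 cells at passage 35 gave the RNA of the first array, and substate 2 cells at passage 50 that of the second. The study characterised both substates in cells kept on Matrigel, a basement membrane preparation, in TeSR-E8 medium. Cells had been moved to Matrigel at passage 35, the passage of the substate 1 array. The methods of the study do not state the matrix of the arrayed cells. Substates had been defined by the form of the colonies and by their stain, which was strong for the R-10G epitope in substate 1 and for vimentin in substate 2. How the cells of each substate were separated before RNA extraction is not given in the sources used here. Passage differed by 15 between the cultures, and time on Matrigel may have differed with it. Neither can be told apart from substate. With 1 array per substate no test was possible, and each difference compares these 2 libraries.

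p53 is a transcription factor that is held low by the ubiquitin ligase MDM2 and accumulates after DNA damage and other stress. It binds DNA as a tetramer at a response element made of a pair of decamers, and the genes that it raises halt the cell cycle, start cell death, repair DNA, retune metabolism or feed back on p53 itself. Human embryonic stem cells are known to die readily through p53 after DNA damage.

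The sequence before the start of PURPL is shown because this gene had the largest difference of the list and because its promoter held the paired p53 element. The table of RefSeq promoters (GRCh38.p14), 250 bases before to 50 bases after each start, held 32 of the 39 genes. The decamer known as the p53 half-site, which reads the same on both strands, was found in 9 of the 32 (28.1%) and in 6.63% of all 35116 promoters of the same length. A pair of decamers at most 13 bases apart was found in PURPL and DDB2 (6.25%) and in 10 of all promoters (0.0285%). The core CATG, which can lie within the decamer, was found in 14 of the 32 (43.8%) and in 54.9% of all promoters. Of the 87 other published p53 targets that served as a second list, 71 were in the table, 12 of them with a decamer (16.9%) and 0 with a pair. For PURPL the 250 bases before the start are printed, on the plus strand at chr5:27472042-27472291, and for DDB2 the pair alone, on the plus strand at chr11:47214979-47214999, with the decamers in capitals.
PURPL: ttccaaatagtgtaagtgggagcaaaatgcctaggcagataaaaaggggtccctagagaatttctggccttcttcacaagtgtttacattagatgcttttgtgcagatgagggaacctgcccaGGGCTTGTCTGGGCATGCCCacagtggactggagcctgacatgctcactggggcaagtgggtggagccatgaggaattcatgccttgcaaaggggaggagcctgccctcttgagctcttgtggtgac
DDB2: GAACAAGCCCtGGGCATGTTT
The PURPL pair ran from base -127 to base -108 with 0 bases between the decamers, where -1 is the last base before the start. The DDB2 pair ran from base 6 to base 26 of the transcribed sequence with 1 base between the decamers.

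A single decamer stood in the promoters of 7 further genes. It is shown for the 6 of them that were measured on both arrays, in capitals, with 10 bases on either side and the base of its start. These are AEN (plus strand, chr15:88621296-88621325, base -34), FAS (plus strand, chr10:88991299-88991328, base -122), FDXR (minus strand, chr17:74872986-74873015, base -11), PLK2 (minus strand, chr5:58460199-58460228, base -132), RPS27L (minus strand, chr15:63157517-63157546, base -59) and SESN1 (minus strand, chr6:109009018-109009047, base -49).
AEN: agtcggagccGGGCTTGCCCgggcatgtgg
FAS: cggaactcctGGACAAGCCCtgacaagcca
FDXR: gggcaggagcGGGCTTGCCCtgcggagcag
PLK2: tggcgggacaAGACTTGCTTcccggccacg
RPS27L: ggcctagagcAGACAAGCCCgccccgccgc
SESN1: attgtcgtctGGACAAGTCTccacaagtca
The seventh was ABCA12, which was near background on both arrays. A match describes these letters only, and the lack of one in this window says nothing about p53.

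A signal is the spot's processed intensity before scaling, and a normalised value is its log2 after the array's 75th percentile was subtracted. Differences are substate 2 minus substate 1 on the log2 scale, so that -1 is 2-fold lower in substate 2. Non-control spots cleared the background by the scanner software's criterion at 57.4% (substate 1) and 54.7% (substate 2), and the 75th percentiles were 313.7 and 275.4. No spot was saturated. The normalised values of the 29883 probes well above background on both arrays had a Pearson r of 0.990, which is across probes and not across samples. Over the 16001 genes so measured the median difference was 0.08 and the SD 0.38. Probes printed 10 times gave a median SD between spots of 0.0460 and 0.0518 (291 probes), and hence an SD of 0.0692 for a difference of single spots. The scanner software models a larger error, which was 0.108 to 0.244 for the differences of the p53 targets, with a median of 0.204. Both are errors within an array and cover neither the cells nor the RNA. The label of the cells was borne out by POU5F1, NANOG and SOX2, with normalised values between 5.25 and 8.14 on both arrays. Of 10 neural genes 4 were measured on both arrays and all 4 were higher in substate 2, by 0.38 (NES) to 1.03 (MAP2, 2.04-fold) with a median of 0.43. SOX1 was measured in substate 2 only, at least 1.71-fold higher, and the other 5, PAX6 among them, were near background on both arrays. Of 10 mesendoderm genes and 10 fibroblast genes 1 and 5 were measured on both arrays. The mesendoderm gene FOXA2 was also higher in substate 2, by 0.77 (1.71-fold). MESP1 was measured in substate 2 only and GATA4 in substate 1 only. The 5 fibroblast genes had a median of -0.11, with 3 lower and 2 higher. The part of such cells in the differences below was not tested. VIM, which encodes vimentin, and ZEB1, a repressor of epithelial genes, were 5.76-fold and 5.81-fold higher in substate 2, and CDH1, which encodes E-cadherin, was 2.78-fold lower.

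Of the 39 p53 targets 36 were measured on both arrays, 1 (CDKN1A) on the substate 1 array only, and 2 (CMBL and ABCA12) lay near background on both. The 36 genes had a median difference of -0.25 (quartiles -0.43 and 0.11, range -2.0 to 1.05), beside 0.08 for all measured genes. Without PURPL the median was -0.23. In bulk RNA such as this, fewer cells that express a gene and less RNA per cell cannot be told apart. The difference was below 0 for 24 of the 36 genes (66.7%) and for 40.2% of all measured genes, and 24 also lay below the median of all genes. Against the SD of single spots, 22 were lower and 12 higher by more than that SD and 2 lay within it, where 33.1% of all measured genes were lower and 51.8% higher. Against the modelled error, 20 were lower and 7 higher by more than that error, where 21.6% and 36.0% of all measured genes were past theirs.

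Larger differences were few. PURPL, GDF15, GADD45B, SPATA18 and POLH were 1.5-fold or more lower in substate 2, which held for 5.03% of all measured genes. TP53I3 and SERTAD1 were 1.5-fold or more higher, against 4.32% of all genes. The 2-fold limit was passed by PURPL and GDF15 on the lower side (1.07% of all genes) and by TP53I3 on the higher side (0.931%). The Z-score of the study, a difference less the mean over all 58201 probes and divided by their SD, has a limit of 2 and here corresponded to 2.53-fold higher or 2.29-fold lower. It was passed by 5 probes on the lower side, where 3.3% of all probes passed, and by 0 on the higher side, where 3.03% did. Of those 5 probes, 1 each of PURPL and GDF15 was well above background on both arrays. The other 3, for PURPL, CDKN1A and POLH, were so on the substate 1 array only, and their Z-scores rest on dim signals.

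**Figure D1:**
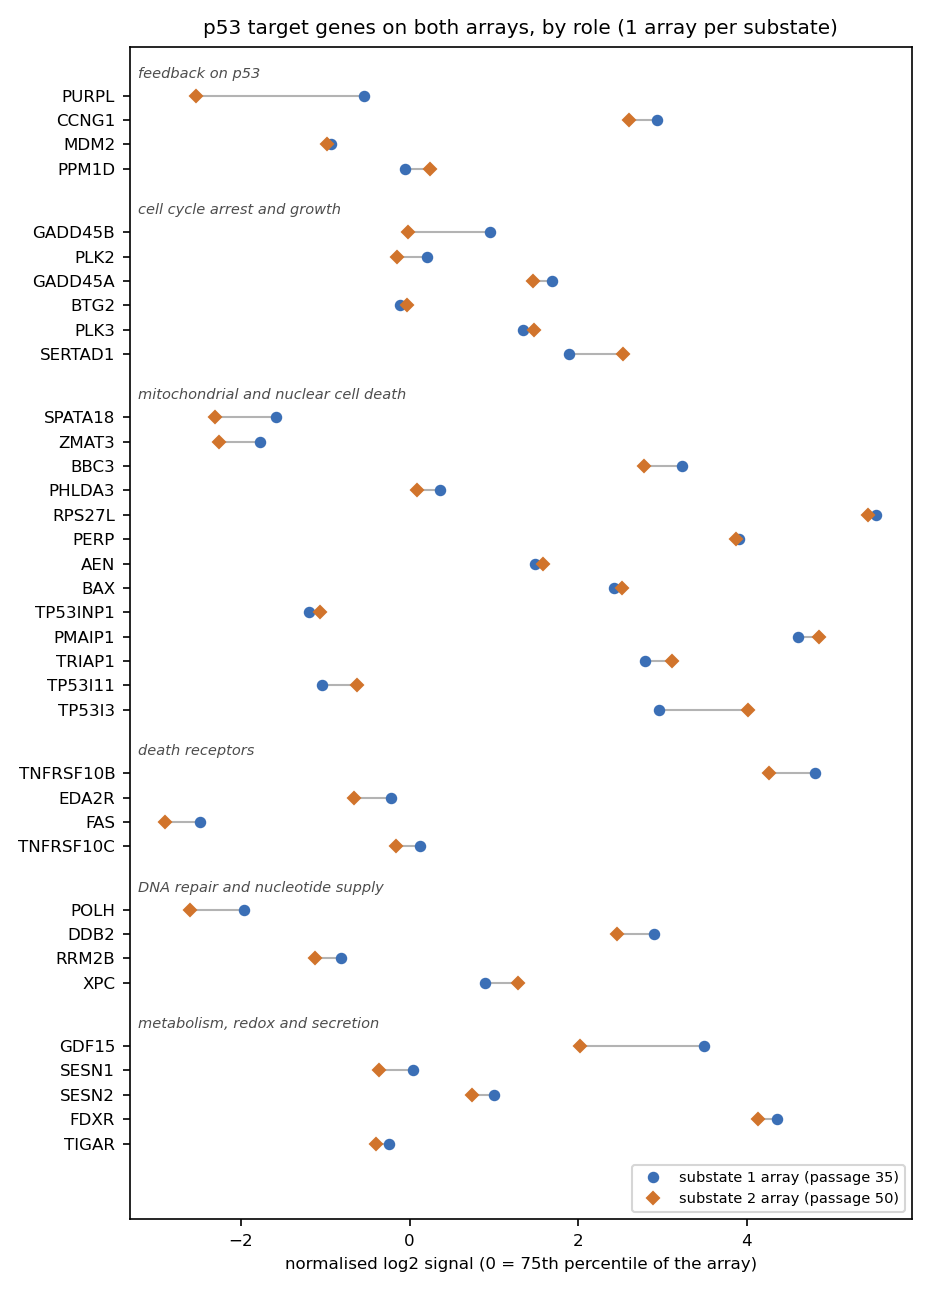
Normalised log2 signal (0 is the array's 75th percentile) of the 36 measured p53 target genes, grouped by role, with a circle for the substate 1 array and a diamond for the substate 2 array. A gene's own pair of symbols is to be compared, not the level of one gene with another, and PURPL (-0.54 and -2.54) and GDF15 (3.49 and 2.02) have the widest gaps.

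Among the genes that feed back on p53, PURPL stood out by its size. PURPL is a long noncoding RNA from chromosome 5 that is induced by p53 and known to keep basal p53 low. Its brighter probe had a signal of 216.3 in substate 1 and 47.5 in substate 2. After scaling this was 4.0-fold lower in substate 2 (difference -2.0, modelled error 0.226), or rank 6 of 16001 genes from the lowest. Its second probe gave 31.9 and 5.14 and cleared the background in substate 1 only, so that it was at least 1.86-fold lower in substate 2. Both PURPL probes were thus lower in substate 2. The 5 measured genes on each side of PURPL had differences from -0.34 to 2.83, and 0 of these 10 were 1.5-fold or more lower.

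MDM2, the ubiquitin ligase that marks p53 for destruction, had 3 measured probes that went different ways. Their signals were 92.4 and 66.1, 271.0 and 236.8, and 176.2 and 175.0, in the order substate 1 and substate 2. The scaled differences were -0.29, -0.01 and 0.18, with a mean of -0.04 and a modelled error of 0.122. The gap of 0.47 between its extreme probes was the largest of the 11 targets with 2 or more measured probes, and MDM2 was the only 1 of these 11 whose probes differed in sign. The median gap was 0.129 for the 11 genes and 0.149 for all genes with 2 measured probes.

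PPM1D, a phosphatase that removes activating phosphates from p53 and its kinases, was 1.23-fold higher in substate 2. Its probes had signals of 526.7 and 543.1, and of 174.6 and 197.0. CCNG1, a cyclin that brings a phosphatase to MDM2, was 1.25-fold lower, with probe signals of 5727 and 3720, and of 998.2 and 753.0. Both probes of each gene went the same way and both differences were past their modelled errors of 0.146 and 0.144. The 4 feedback genes had a median of -0.18, with 3 of 4 lower.

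CDKN1A, which encodes the cyclin-dependent kinase inhibitor p21, is the textbook mediator of arrest by p53. Its single probe gave 24.4 in substate 1 and 3.78 in substate 2, where it was not well above background. It was therefore at least 1.42-fold lower in substate 2, a bound that did not reach 2-fold. Among the 696 genes that were measured on the substate 1 array only, 7.18% had a bound of 2-fold or more.

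The other genes of arrest and growth control differed in both directions, 3 lower and 3 higher, with a median of -0.07. GADD45B, a stress sensor of the GADD45 family that activates stress kinases, had a signal of 608.4 in substate 1 and 271.5 in substate 2. It was 1.97-fold lower in substate 2 (difference -0.98, modelled error 0.205), whereas the difference of its relative GADD45A was -0.23, from signals of 1012 and 758.5. SERTAD1, a regulator of cyclin-dependent kinase activity and E2F, went the other way, from 1160 to 1587, and was 1.56-fold higher (difference 0.64, modelled error 0.204).

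The remaining 3 genes of that group differed by less than 1.5-fold. PLK2, a Polo-like kinase with a role in centrosome duplication, was 1.28-fold lower, with signals of 362.0 and 248.0. Its difference of -0.36 was past its modelled error of 0.205. PLK3, a Polo-like kinase of the stress response, had a difference of 0.13, from signals of 795.9 and 763.2. BTG2, an antiproliferative cofactor of messenger RNA deadenylation, had a difference of 0.09, from 289.8 and 270.2. The differences of PLK3 and BTG2 lay within their modelled errors of 0.204 and 0.206.

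**Figure D2:**
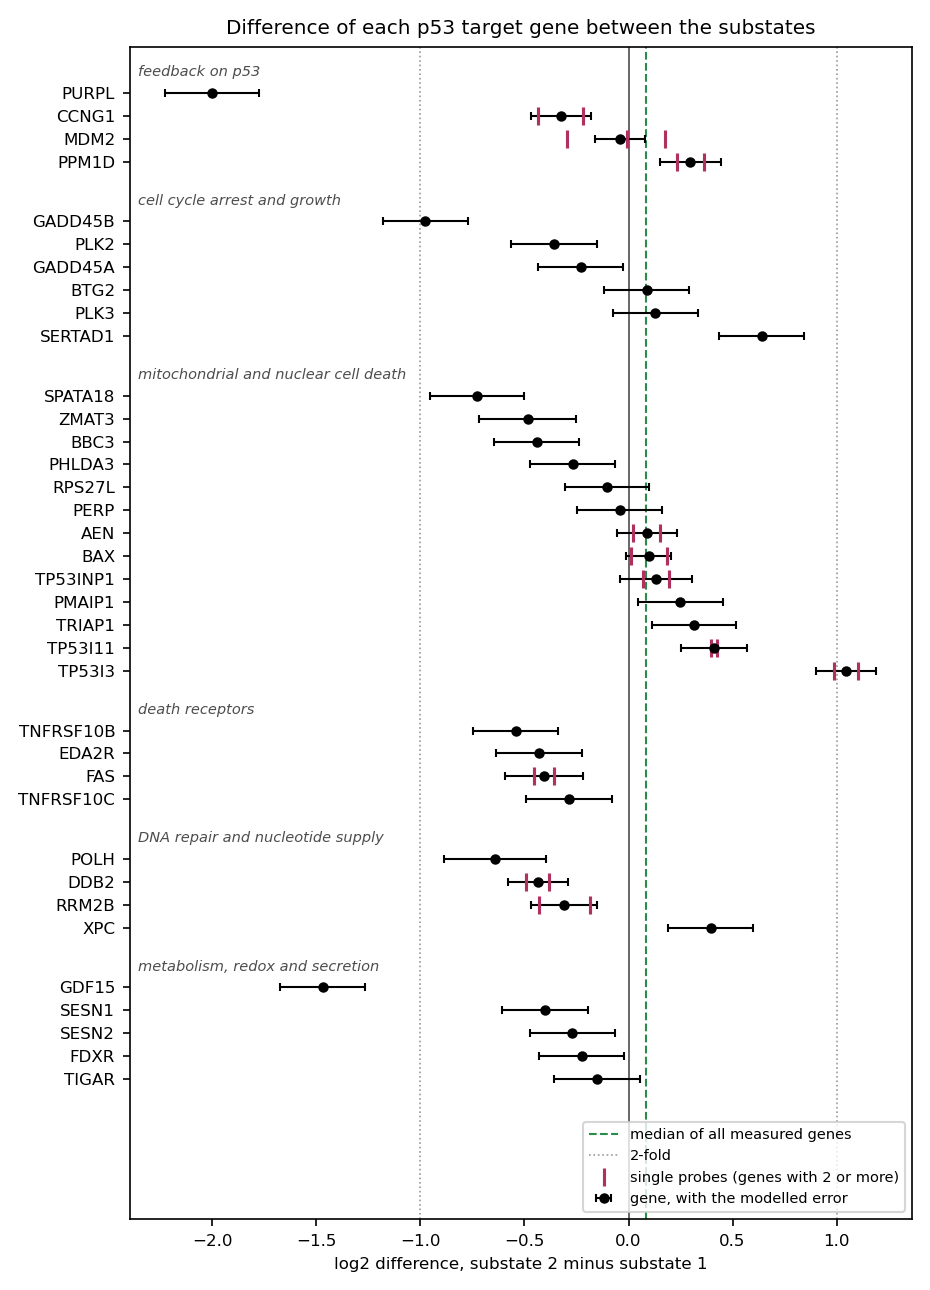
Log2 difference of the 36 genes between the arrays (substate 2 minus substate 1), as a black point with the modelled error within an array as its bar and red ticks for the single probes of genes with 2 or more. The 4 genes of the death receptor group and the 5 of metabolism, redox and secretion all lie below 0. The cell death genes lie on both sides of it, from -0.73 (SPATA18) to 1.05 (TP53I3).

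The 13 genes of mitochondrial and nuclear cell death had a median of 0.09, with 6 lower and 7 higher. TP53I3, a quinone oxidoreductase linked to reactive oxygen species in p53-driven cell death, was the only target 2-fold or more higher in substate 2. Its probes gave signals of 3016 and 5255, and of 1981 and 3741, so that both were brighter in substate 2 even before scaling. After scaling they were 1.99-fold and 2.15-fold higher, with a gene difference of 1.05 (2.07-fold, modelled error 0.144) and rank 129 from the highest. It stayed just short of 2-fold under quantile normalisation, loess centring, normexp background correction and by its brightest probe alone, with 0.93 as its lowest difference. The 10 nearest measured genes on chromosome 2 ranged from -0.32 to 0.33.

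SPATA18, which acts in the clearance of damaged mitochondrial protein, lay at the other end of this group. Its signal was 104.9 in substate 1 and 55.5 in substate 2, or 1.66-fold lower (difference -0.73, modelled error 0.225). Its 10 nearest measured genes ranged from -0.26 to 0.17. ZMAT3, a zinc finger protein that binds RNA, was 1.40-fold lower, from 91.6 to 57.5 in signal.

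The BCL2 family members among the targets did not share a direction. BBC3, which encodes the BH3-only protein PUMA, was 1.36-fold lower, from 2937 to 1899. PMAIP1, which encodes the BH3-only protein NOXA, was 1.19-fold higher after scaling, with signals of 7625 and 7957. BAX, which permeabilises the outer mitochondrial membrane, had a probe printed 10 times with signals of 11284 ± 274 and 9976 ± 233 (SD over 10 spots of 1 array each). That probe differed by 0.01 after scaling and the second BAX probe (251.4 and 251.1) by 0.19, for a gene difference of 0.10 within the modelled error of 0.108.

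Of the other cell death genes 2 were past their modelled errors on the higher side. TRIAP1, a mitochondrial factor that favours survival, was 1.24-fold higher, with signals of 2178 and 2377. TP53I11 was 1.33-fold higher, with probe signals of 459.8 and 531.7, and of 51.0 and 60.1. On the lower side PHLDA3, a repressor of the kinase AKT, was 1.20-fold lower, from 401.9 to 292.9. The differences of AEN (0.09), a nuclease that degrades DNA in apoptosis, TP53INP1 (0.13), a stress protein that promotes p53 activity, PERP (-0.04), a membrane protein of desmosomes, and RPS27L (-0.10), a ribosomal protein relative, all lay within their modelled errors. Both probes of AEN (635.1 and 566.5, 1222 and 1191) and both of TP53INP1 (38.9 and 35.8, 483.7 and 486.4) were slightly higher after scaling. PERP gave 4722 and 4027 and RPS27L 14551 and 11890.

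The group of death receptors and related receptors had the lowest median, -0.42, and all 4 of its genes were lower in substate 2. TNFRSF10B, the receptor for the ligand TRAIL that passes the death signal on, had signals of 8766 and 5285 and was 1.46-fold lower. Its neighbour TNFRSF10C, a decoy receptor for TRAIL without a death domain, was 1.22-fold lower, from 341.4 to 245.7. FAS, the receptor for FAS ligand, was 1.32-fold lower over its measured probes, whose signals were 45.4 and 29.1, and 68.7 and 47.0.

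Another FAS probe was well above background on neither array. EDA2R, a receptor for an isoform of ectodysplasin, was 1.35-fold lower by its brighter probe (268.8 and 175.1). Its second probe gave 33.4 and 15.2 and cleared the background in substate 1 only. Taken at its own dim value in substate 2 it was 1.93-fold lower, an estimate with a modelled error of 0.408 and not a bound. The 4 gene differences ranged from -0.54 to -0.29 and each was past its modelled error, the largest of which was 0.208. None of the 4 reached 1.5-fold as reported, and TNFRSF10B passed it under quantile normalisation (-0.69) and loess centring (-0.68). EDA2R passed it at -0.69 when its dim second probe was included at its own value.

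Among the genes of DNA repair and nucleotide supply 3 of 4 were lower, with a median of -0.37. DDB2, which recognises ultraviolet damage in chromatin, was 1.35-fold lower, with probe signals of 5933 and 3707, and of 922.1 and 621.3. POLH, the polymerase that copies past ultraviolet lesions, was 1.56-fold lower by the probe measured on both arrays (80.8 and 45.4, difference -0.64, modelled error 0.244). Its other probe (16.8 and 5.04) cleared the background in substate 1 only and allows no fold. The 10 measured genes nearest to POLH ranged from -0.64 to 0.56, and 1 of them was 1.5-fold or more lower.

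RRM2B, a ribonucleotide reductase subunit for resting cells, was 1.24-fold lower, with probe signals of 70.1 and 45.6, and of 456.6 and 352.3. XPC, the partner of DDB2 in damage recognition for nucleotide excision repair, was the exception in this group. Its signals were 581.6 and 671.4, which made it 1.31-fold higher in substate 2.

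All 5 measured genes of metabolism, redox control and secretion were lower in substate 2, with a median of -0.27. GDF15, a secreted member of the TGF-beta superfamily that rises with cell stress, had a signal of 3521 in substate 1 and 1117 in substate 2. It was 2.77-fold lower (difference -1.47, modelled error 0.204) and ranked 34 of 16001 genes from the lowest. The 10 nearest measured genes on chromosome 19 had differences from -0.21 to 0.57. GADD45B lies on the same chromosome, and its 10 nearest genes ranged from -0.16 to 0.55.

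The sestrins, stress proteins that restrain mTORC1, were both lower. SESN1 was 1.32-fold lower, from 322.6 to 214.2, and SESN2 1.21-fold lower, from 629.8 to 458.4. FDXR, which passes electrons to mitochondrial cytochrome P450 enzymes, was 1.17-fold lower, from 6430 to 4830. TIGAR, a phosphatase that lowers glycolytic flux, had a difference of -0.15 within its modelled error of 0.206, with signals of 264.6 and 209.1.

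The sestrin and FDXR differences were past their modelled errors. CMBL, a hydrolase (12.8 and 17.6), and ABCA12, a lipid transporter (3.67 and 4.09), were near background on both arrays and have no fold.

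Set against the promoters shown above, the 8 measured genes with a decamer had a median difference of -0.38 (range -2.0 to 0.09), with 7 of 8 lower than 0. The 22 measured genes of the promoter table without one had a median of -0.04 (range -1.47 to 1.05), with 12 lower. The other 7 targets had no entry in that table. These are descriptions of a small split, and the ranges overlapped.

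Regulators of p53 were also examined. MDM4, the inhibitory partner of MDM2, was 1.15-fold lower, with differences of -0.37, -0.13 and -0.10 over its 3 probes. Over the 22 measured of 23 regulators, which include MDM4, the median was 0.10, beside 0.08 for all measured genes. Of these 22 genes 15 were higher and 7 lower than 0 (31.8% lower, where 40.2% of all measured genes were). Against the median of all genes 10 lay below and 12 above. In that list 1 gene was 1.5-fold or more lower and 0 were 1.5-fold or more higher. The lower one was TP73, a p53 relative (1.70-fold), which is named here after its value was seen. Its measured probe was dim, with normalised values of -2.96 and -3.72 and a modelled error of 0.330. The other TP73 probe cleared the background in substate 1 only.

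The second list of 87 p53 targets, none of which is among the 39, had 81 measured genes with a median of -0.02. In this list 43 were lower than 0 (53.1%, beside 40.2% of all measured genes) and 38 higher. Below the median of all genes lay 50 of the 81 (61.7%). Of the 81 genes 7 were 1.5-fold or more lower (8.64%) and 2 were 1.5-fold or more higher (2.47%). Only TRIM38, an E3 ubiquitin ligase of innate immune signalling, passed 2-fold in this list, at 2.34-fold lower. Its single probe was dim, with normalised values of -2.39 and -3.62 and a modelled error of 0.308. Under centring on the median of all probes the median of these 81 genes was 0.0206, so its sign depended on the scaling. That centring shifts every gene alike and moved the median of all measured genes from 0.08 to 0.126. The place of the list beside all genes was therefore the same under both. Of 13 long noncoding RNAs tied to p53, 8 were measured on both arrays, with a median of -0.12 and 0 past 2-fold. Of the 8, 6 were lower and 2 higher than 0. Only LINC-PINT was 1.5-fold or more lower (1.55-fold, modelled error 0.108), and it is named after its value was seen. Its 4 probes measured on both arrays ranged from -0.84 to -0.33.

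Genes that p53 lowers through p21 and the DREAM complex, most of them of the cell cycle, had 19 of 20 members measured and a median of 0.34. Of these 19 genes 17 were higher in substate 2 and 2, CDK1 (-0.18) and BUB1 (-0.13), were lower, both being named after their values were seen. None of the 19 was 1.5-fold or more different. The 23 measured housekeeping genes, beside them, had a median of 0.25. CHEK1, a checkpoint kinase, stands in this list and among the regulators.

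**Figure D3:**
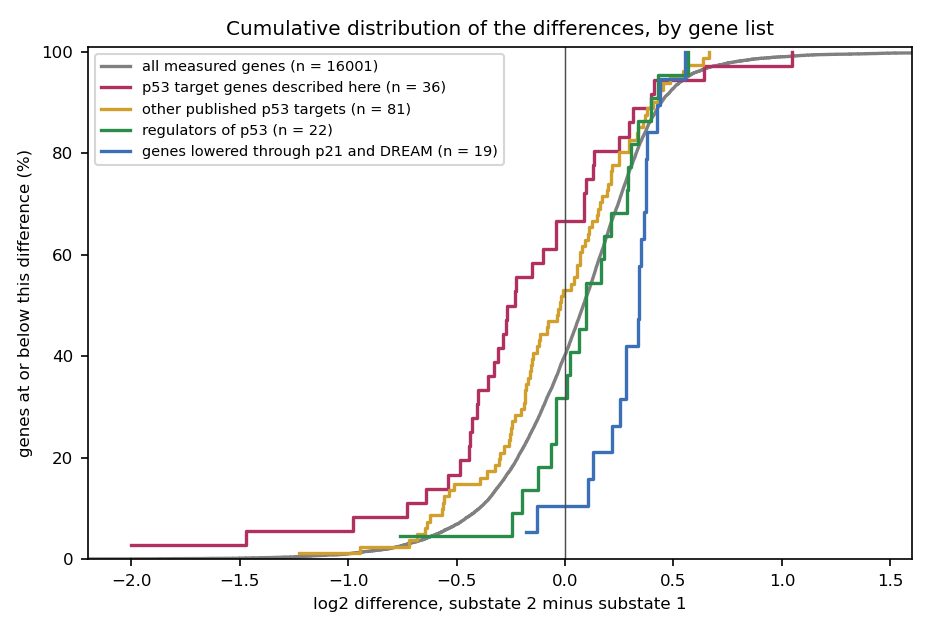
Share of genes (%) at or below a given log2 difference (substate 2 minus substate 1), as a step line for each list and for all 16001 measured genes. The line of the 36 p53 targets runs left of the grey line over most of its length (medians -0.25 and 0.08), the 81 other targets lie closer to it (-0.02), and the 19 genes lowered through p21 and DREAM lie to its right (0.34).

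The processing moved the size of these differences more than their direction. Under 9 other scalings, background corrections and probe rules, 22 targets were lower and 12 higher in substate 2 every time, and MDM2 and PERP changed sign. Keeping outlier spots could move no sign, as 0 target probes had one. The deposited values, which matched those computed here up to a constant, could hardly move one. The median over probes could do so only for MDM2, the only target with 3 measured probes. The median of the measured targets less that of all genes was -0.33 as reported (36 targets) and ran from -0.36 to -0.24 over all alternatives. The -0.36 came with no filter on dim probes, which takes in all 39 targets. GDF15 kept between -1.56 and -1.41 and TP53I3 between 0.93 and 1.09. PURPL was -1.22 under normexp background correction, which adds an offset that compresses dim signals, and -2.0 as reported. SPATA18 and POLH, also dim, were -0.31 and -0.19 under that correction and no longer passed 1.5-fold, and FAS was at -0.083. All 4 genes of the death receptor group and all 5 measured genes of metabolism, redox control and secretion were among the 22.

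**Figure D4:**
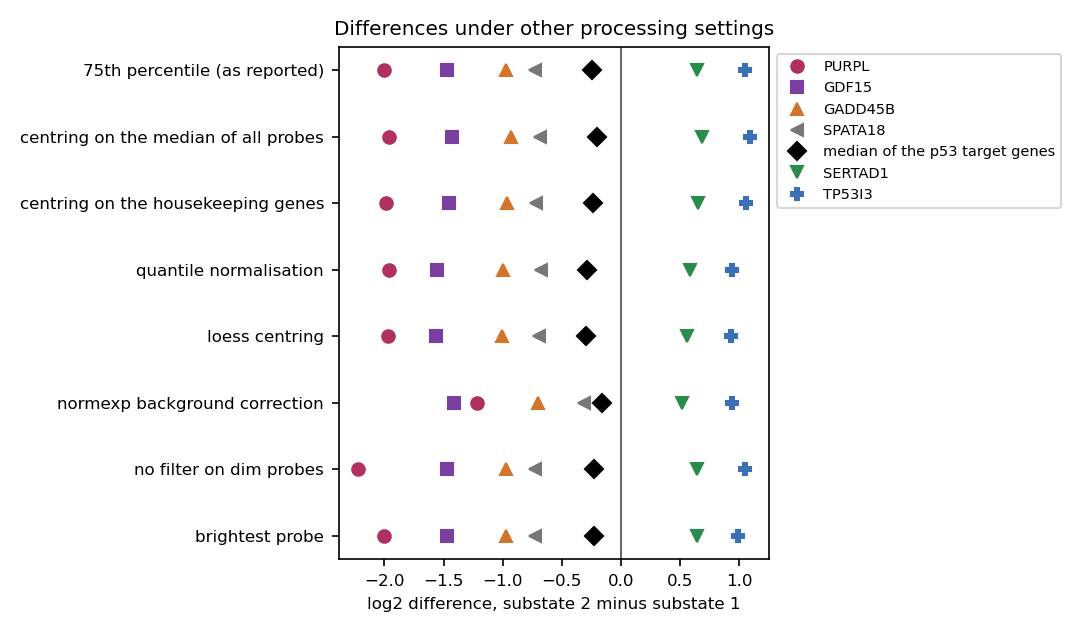
Log2 difference (substate 2 minus substate 1) of 6 named p53 targets and the median of the measured targets, with each processing setting on a line of its own. Every gene keeps its side of 0, PURPL moves to -1.22 under normexp background correction, and the median lies between -0.30 and -0.16 in the settings drawn.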

How the data were processed

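The authors deposited the Agilent scanner output of both arrays, in which each spot has an intensity, and a series matrix of log2 values. Per the file headers, Feature Extraction 11.5.1.1 (protocol GE1_1105_Oct12) subtracted background, and the deposited flags and error columns come from it. Per the methods of the study, the log2 values were scaled to the 75th percentile in GeneSpring. They matched the values computed here up to a constant per array for 100% of 58201 probes (tolerance 0.01), and their column medians were -3.56 and -3.61.

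Processed intensities were set to 1 where lower (0 spots). Log2 was taken, outlier spots (71 and 101) were left out, replicate spots were averaged and each array was shifted by the 75th percentile of its non-control probes. A gene's value was the mean over its probes well above background on both arrays. Where only 1 array measured a probe, the fold is a bound ("at least N-fold"), taken from the bright value to whichever was higher on the dim array, the probe's own value or the lowest one clear of background. Where the probe's own value was the higher, as for EDA2R, the fold is an estimate from a dim value and not a bound. Probes were named by RefSeq accession (GRCh38.p14), and 31104 of them (53.4%) matched. Both arrays lay on 1 slide and were read in 1 scan, at different positions.

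Limma 3.58.1 in R 4.3.3 gave the normexp, quantile and loess alternatives, and Python 3.11.15 the rest. The calculation was tested on simulated data. No replicate exists, so no test was run and the number of arrays limits the precision. Alternatives covered scaling, background, the filter on dim probes, outlier spots, probe rules and the Z-score. The p53 targets, the other gene lists and the limits were chosen with earlier results of these data known. All targets are accounted for. Members of the other p53 lists are named where they passed 2-fold, besides MDM4, CHEK1 and the genes said to be named after their values were seen. One gene of the regulator list is not reported here.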

Additional observations from a re-analysis of the deposited data

How the results depend on the processing

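No paired analysis was possible because the labels carry no replicate numbers, and with 1 array a substate none could be left out. Under normexp background correction, run on median spot and background signals with an offset of 50 because mean signals were not used here, the median of the p53 targets was -0.16, 3 genes were 1.5-fold or more lower and 1 higher, and 0 passed 2-fold higher. Under it 9 probes passed the lower and 2 the upper Z-score limit. Quantile normalisation and loess centring each left 0 genes 2-fold higher and 1 gene 1.5-fold higher, with medians of 0.20 and 0.19 for the genes lowered through p21 and DREAM. The brightest probe alone left 0 genes 2-fold higher. With dim probes at their own value on at least 1 array, or with no filter, 4 genes were 2-fold or more lower. Centring on the median of all probes turned the median of the other p53 targets to 0.0206 and that of all measured genes to 0.126. With the Z-score over probes well above background on both arrays, 3 probes passed the lower limit and 2 the upper, and with an SD estimated through the median absolute deviation 8 and 2. The cause was not tested except where the construction shows it, such as dim probes entering. Naming further probes by gene name was not run. The median of the regulators stayed above 0, from 0.041 (loess centring) to 0.137 (centring on the median of all probes). That of all measured genes was 0.035 and 0.126 under these settings. The median of the other p53 targets ran otherwise from -0.074 (loess centring) to -0.0028 (normexp). Loess centring left 3 genes 2-fold or more lower. Medians of the noncoding RNAs, the housekeeping genes, the marker lists and the roles were not recomputed. Signals near background limit PURPL's second probe, CDKN1A, POLH, FAS, CMBL and ABCA12, and in the other lists TRIM38 and TP73.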
